A study of Mus musculus with 6 samples.

Results

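Receptors for serotonin, noradrenaline and acetylcholine were described in mouse cerebral cortex labelled Cux2 knock-out and in control cortex. The members were all non-control probes of the array whose gene name begins with Htr and a digit, Adra or Adrb and a digit, Chrm and a digit, or Chrn. This rule gave 64 probes of 44 genes, among 27670 named genes of the array, with 14 serotonin, 9 adrenergic, 5 muscarinic and 16 nicotinic genes. RNA of 6 male mouse cortex samples was put on Agilent arrays with a single dye, Cy3, and each sample had 1 array. Of these, 3 samples are labelled Cux2-/- (knock-outs 53, 48 and 54). The other 3 samples (controls 15, 62 and 16) are titled WT and their source reads wild-type, yet their genotype field reads Cux2+/-. The labels do not settle this conflict, so these samples are called controls. The sources used here give no age, strain or allele structure. They do not say whether the samples came from different mice, so each p-value reflects only how far these 6 samples spread, which may be technical.

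Monoamines and acetylcholine reach the cortex mainly on long axons from brainstem and basal forebrain nuclei, and their receptors sit on cortical neurons, glia and vessels. Most of these receptors are seven-helix proteins that act through G proteins, classed by whether they couple to Gq, Gi or Gs. The serotonin Htr3 subunits and the nicotinic Chrn subunits instead assemble as pentamers around an ion channel opened by the transmitter. Cux2, the targeted gene, encodes a cut-repeat homeodomain protein that binds DNA and marks upper cortical layers.

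All levels are log2 of the processed spot signal minus the array's 75th percentile, so 0 is a probe at that percentile, and differences are knock-out minus control on the same scale. A probe's brightness depends on its sequence as well as on its transcript, so ranks are of probe brightness and not of transcript abundance. Between 58.5% and 68.0% of probes on knock-out arrays, and between 62.7% and 72.7% on control arrays, were well above background. All 6 pyramidal-neuron markers and all 11 interneuron markers entered the test, and Cux2 itself differed by -0.12 for its brighter probe (limma, adjusted p = 0.838). The position of that probe relative to the mutation is unknown here, so it checks nothing about the labels. In whole tissue, fewer cells of a type and less RNA per cell cannot be told apart.

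No receptor gene passed an adjusted p of 0.05 in limma: 0 of 24 tested member genes and 0 of 32 tested member probes were called. The background was 33 called probes of 25504 (0.129%), or 22 of 17121 genes (0.128%). At an unadjusted p under 0.05 there were 2 member genes, with Chrm1 among them, both lower in the knock-outs, where 8.27% of all genes had such a p in either direction and 4.38% were lower. The 3 knock-out arrays lay wholly on one side of the 3 controls in 3 of the 24 genes (all lower, with Chrm1 and Adrb1 among them), against 13.6% of all genes in either direction and 7.21% lower. Both counts are near their background in either direction, and with 24 genes nothing is read from all of them being lower. Of the 24 genes 12 were higher and 12 lower, with a median difference of 0.0003, against a median of -0.01 over all genes tested, of which 51.8% were lower. That split was 19 higher and 5 lower without scaling between arrays, where the median of all genes was 0.17. It was also 19 and 5 after normexp correction of the background with 75th-percentile scaling, where the members' median was 0.30 and that of all genes 0.03.

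**Figure D1:**
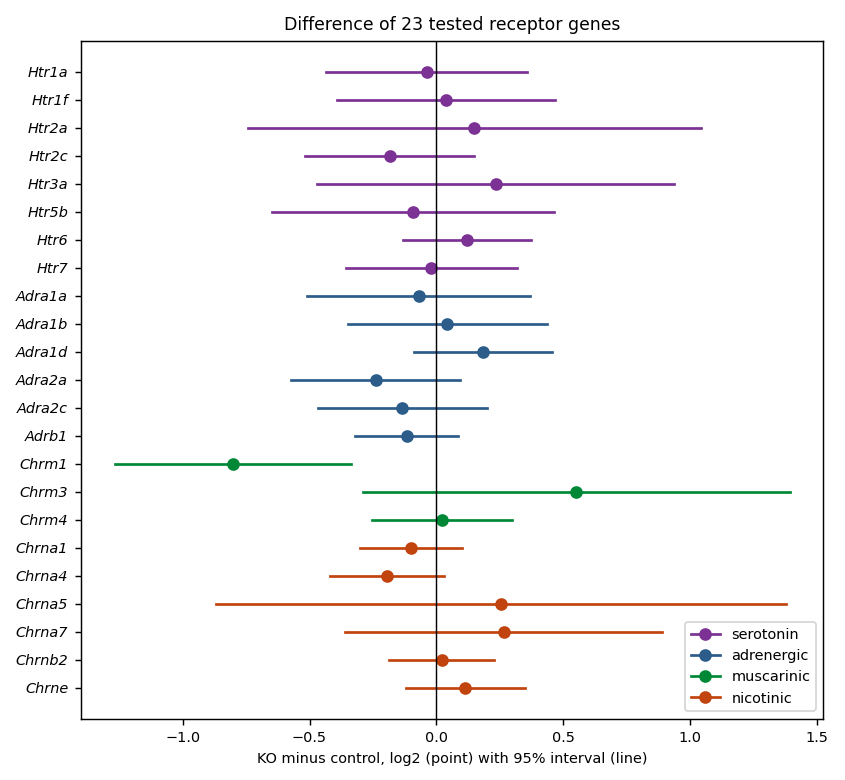
Knock-out minus control difference (log2, horizontal axis) of 23 of the tested receptor genes, by the brightest probe of each, with the 95% interval of the limma fit as a line and the family by colour. The interval of Chrm1 lies below 0, and those of the other 22 genes shown include 0.

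The intervals show how much of a difference these arrays leave room for. In 13 of the 24 genes the 95% interval lay within 0.5 on either side of 0, and in 20 it lay within 1, where 71.6% of all genes had an interval within 0.5. The narrowest standard error was 0.08 (Chrna1) and the widest 0.47 (Chrna5), with a median of 0.14 against 0.11 over all genes. In simulated data of this comparison with 25442 probes, 66% of probes changed 2-fold and 18% of those changed 1.5-fold were recovered. Changes were planted in 50 probes at each of 1.5-, 2-, 4- and 8-fold, and the spread was that of tested probes in general. The receptors had a wider median standard error, so these shares are not those of the receptors.

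By the brightest probe of each gene, 22 of the 44 receptor genes were well above background on all 6 arrays, 13 on some arrays and 9 on none. The adrenergic family was the most fully measured, with 7 of 9 genes on all 6 arrays, followed by 3 of 5 muscarinic, 6 of 14 serotonin and 6 of 16 nicotinic genes. To enter the test a probe had to exceed background clearly on each of the 3 arrays of either group. Htr6 and Htr2a entered through the control group, with 2 of 3 knock-out arrays above background, and 0 member probes entered through the knock-outs. The number of member genes above background varied within both groups: 24, 22 and 30 on knock-out arrays 53, 48 and 54, and 25, 25 and 34 on control arrays 15, 62 and 16. Control 16 and knock-out 54 also had the largest shares of all probes above background, 72.7% and 68.0%.

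**Figure D2:**
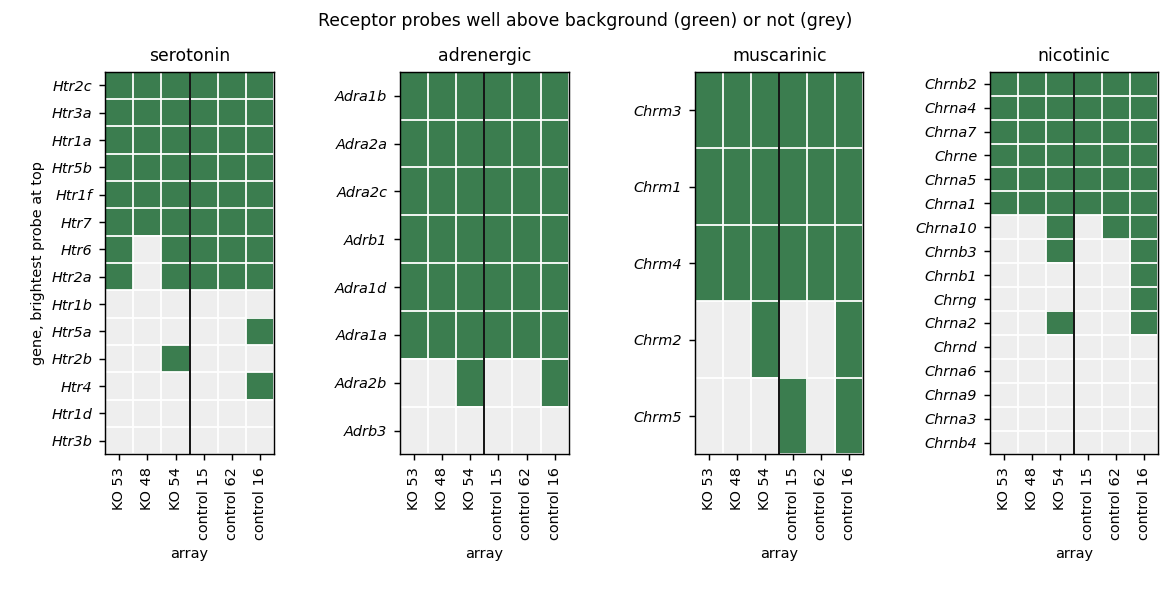
Receptor genes (43 rows, by family, brightest in controls at the top) that were well above background (green) or not (grey) on each of the 6 arrays (columns, knock-outs left of the line, controls right), by the brightest probe. Genes above background on all 6 arrays fill the top of each panel, and most of the scattered calls below them are on knock-out 54 and control 16.

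The 9 genes above background on no array with any of their probes were Htr1b, Htr1d, Htr3b, Adrb3, Chrna3, Chrna6, Chrna9, Chrnb4 and Chrnd. They include the Gi-coupled receptors Htr1b and Htr1d, the accessory channel subunit Htr3b, the beta receptor of fat cells Adrb3 and the subunits typical of autonomic ganglia, Chrna3 and Chrnb4. Several of these genes lie beside another member: the gene table places Htr3a next to Htr3b, Chrna5 next to Chrna3 and Chrna3 next to Chrnb4 on chromosome 9, Chrnb3 next to Chrna6 on chromosome 8 and Chrnd next to Chrng on chromosome 1. In the first cluster Htr3a was above background on all 6 arrays and Htr3b on none. In the second Chrna5 was above background on all 6 arrays while Chrna3 and Chrnb4 were on none.

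Genes above background on some arrays of 1 group and on none of the other were dim throughout. Chrm5, a Gq-coupled muscarinic receptor, was above background on 0 of 3 knock-out arrays and 2 of 3 controls, at -5.37, -5.76 and -6.58 in knock-outs 53, 48 and 54 and at -5.20, -7.36 and -6.05 in controls 15, 62 and 16. Htr2b, a Gq-coupled serotonin receptor, was above background on knock-out 54 alone, at -6.43, -6.07 and -5.76 in knock-outs and -5.44, -7.35 and -6.83 in controls. Htr4, Htr5a, Chrnb1 and Chrng were above background on control 16 alone. For Htr4, coupled to Gs, the levels were -7.38, -6.80 and -8.17 in knock-outs and -7.41, -8.13 and -4.69 in controls. For Htr5a they were -5.84, -6.20 and -6.08 in knock-outs and -7.12, -6.39 and -5.82 in controls. The groups overlapped in all 6 of these genes. For the muscle subunits, Chrnb1 stood at -6.54, -6.66 and -6.03 in knock-outs and -6.78, -6.76 and -5.75 in controls, and Chrng at -6.31, -6.55 and -7.21 in knock-outs and -6.29, -7.11 and -6.07 in controls. None of the 6 was tested.

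Among serotonin receptors the brightest probe was that of Htr2c, a Gq-coupled receptor also known for high expression in choroid plexus. Htr2c stood at -0.51, -0.69 and -0.94 in knock-outs 53, 48 and 54, and at -0.35, -0.57 and -0.67 in controls 15, 62 and 16. The groups overlapped, and the difference was -0.18 (SE 0.14, limma adjusted p = 0.830). A dimmer Htr2c probe had the opposite sign, with a difference of 0.10 (SE 0.28, limma adjusted p = 0.966). It entered the test through the controls alone, with 2 of 3 knock-out arrays above background, and nothing is read from its difference. The mean deviation of choroid plexus markers was 0.61, -0.67 and 0.40 in knock-outs 53, 48 and 54 and -0.94, 0.88 and -0.28 in controls 15, 62 and 16. Of 8 such markers 7 were tested, 6 higher and 1 lower, and their summed signal, in multiples of the array's 75th percentile, ranged from 4.93 to 12.6 in knock-outs and from 5.20 to 13.8 in controls. Their part in the Htr2c values was not tested.

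Htr3a, the channel-forming serotonin subunit known from a class of cortical interneurons, stood at -0.37, -0.81 and -1.19 in knock-outs 53, 48 and 54 and at -0.51, -1.08 and -1.48 in controls 15, 62 and 16. The groups overlapped, with an SD of 0.41 in knock-outs and 0.49 in controls, both wider than the difference of 0.23 (SE 0.29, limma adjusted p = 0.912). Within slide 1, which holds control 15 with knock-outs 48 and 54, the difference was -0.49, and within slide 2 it was 0.91. Of 11 interneuron markers 3 were higher and 8 lower, with a summed signal, mostly that of the bright Cck and Sst, of 138 to 145 in knock-outs and 135 to 149 in controls. Adarb2, known from the Htr3a class of interneurons and named after its values were seen, stood at 0.86, 1.04 and 0.80 in knock-outs 53, 48 and 54 and at 0.89, 0.04 and -0.09 in controls 15, 62 and 16. The groups overlapped, and the difference was 0.63 (unadjusted p = 0.0459, limma adjusted p = 0.617). Control 15 was the highest control for both genes, while the highest knock-out was 48 for Adarb2 and 53 for Htr3a. Vip, a marker of the same class also named after its values were seen, differed by 0.16 (limma adjusted p = 0.876). Adarb2 and Vip were among the 3 higher markers of the 11. Among the 8 lower ones were Cnr1 at -0.31, Reln at -0.05 and Npy at -0.02. The part of interneurons in the Htr3a values was not tested.

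Htr2a, a Gq-coupled receptor known from pyramidal neurons and as the target of hallucinogens, was dim. It stood at -4.60, -5.36 and -5.62 in knock-outs 53, 48 and 54 and at -4.70, -5.40 and -5.93 in controls 15, 62 and 16. The groups overlapped, and the difference of 0.15 (SE 0.37, limma adjusted p = 0.961) was -0.79 within slide 1 and 1.07 within slide 2. It turned to -0.15 without knock-out 53 and to -0.14 without control 16. Htr2a, Htr2c and Htr3a shared an order of arrays, with knock-out 53 above 48 above 54 and control 15 above 62 above 16. This likeness was noticed after the values were seen and was not tested.

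**Figure D3:**
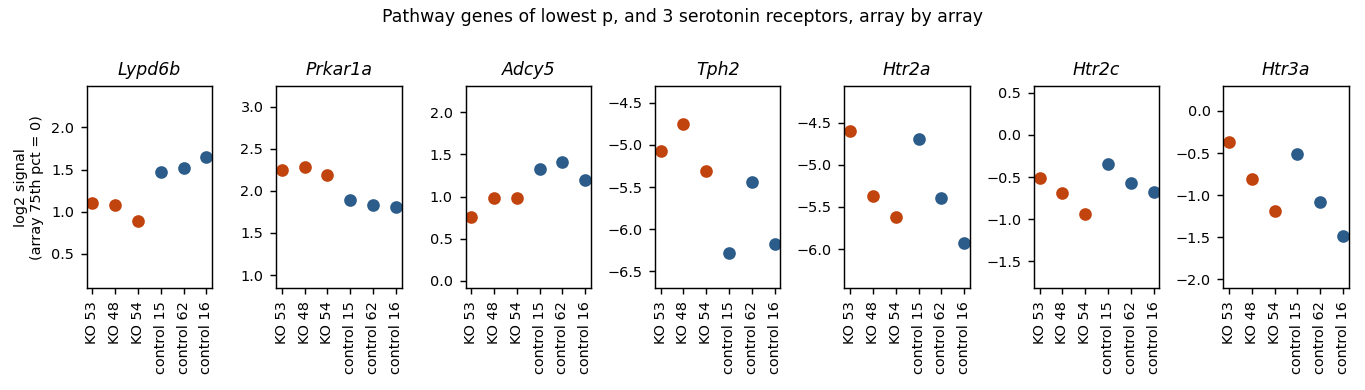
Level (log2 signal, 0 at the array's 75th percentile) of 4 transmitter pathway genes of lowest p and of Htr2a, Htr2c and Htr3a on each array, with knock-outs in red at the left and controls in blue at the right. For Lypd6b, Prkar1a, Adcy5 and Tph2 the groups do not overlap, as for 13.6% of all genes. These 4 were picked by their low p, so nothing is read from that. The 3 serotonin receptors fall in the same order of arrays within each group and are shown because this was noticed in their values.

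Htr1a, the Gi-coupled receptor that inhibits cortical neurons, stood at -2.25, -2.59 and -2.48 in knock-outs and at -2.11, -2.68 and -2.41 in controls. Its difference was -0.04 (SE 0.17, limma adjusted p = 0.978), with an interval from -0.43 to 0.36. The other tested serotonin receptors, Htr1f, Htr5b, Htr6 and Htr7, differed by between -0.09 and 0.12 with adjusted p from 0.850 to 0.987 in limma. Over the 8 tested serotonin genes 4 were higher and 4 lower, with a median of 0.01 and a range from -0.18 to 0.23. The sign differed between the slides for 7 of the 8, against 49.9% of all genes, a count not tested.

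The brightest receptor probe was that of Adra1b, a Gq-coupled adrenergic receptor, at the 89.9th percentile of the 27670 genes ranked in controls. Adra1b stood at 3.05, 2.79 and 2.45 in knock-outs 53, 48 and 54 and at 2.72, 2.86 and 2.57 in controls 15, 62 and 16, a difference of 0.04 (SE 0.16, limma adjusted p = 0.975). A dimmer Adra1b probe differed by -0.27, with knock-out 54 at -4.39 and the other 5 arrays between -3.54 and -3.29. Percentiles of 82.1, 80.2 and 78.8 were held by Adra2a, Adra2c and Adrb1, so the 4 brightest of all 44 receptors were adrenergic.

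The Gi-coupled receptor Adra2a, known as an autoreceptor and as a postsynaptic receptor of prefrontal cortex, stood at 1.18, 1.53 and 1.2 in knock-outs and at 1.71, 1.34 and 1.58 in controls. The groups overlapped, and its 3 probes differed alike, by -0.24, -0.22 and -0.15 (limma adjusted p from 0.749 to 0.855). Its relative Adra2c stood at 1.02, 1.33 and 1.11 in knock-outs and at 1.04, 1.38 and 1.45 in controls, a difference of -0.13 (limma adjusted p = 0.884).

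Adrb1, the main Gs-coupled beta receptor of cortical neurons, stood at 1.09, 0.88 and 1.04 in knock-outs and at 1.10, 1.15 and 1.11 in controls. The highest knock-out lay just below the lowest control, and the difference was -0.12 (SE 0.08, limma adjusted p = 0.822). A dimmer Adrb1 probe differed by -0.26 (SE 0.25, limma adjusted p = 0.875), and its groups overlapped.

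Adra1d, a Gq-coupled receptor, stood at -2.69, -2.88 and -2.91 in knock-outs and at -3.20, -2.93 and -2.90 in controls, a difference of 0.18 (SE 0.11, limma adjusted p = 0.778). With slide as a block the difference was 0.26 (unadjusted p = 0.0186, adjusted p = 0.536). Over the 7 tested adrenergic genes, 2 were higher and 5 lower, with a median of -0.12.

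The largest difference among the tested receptors was that of Chrm1, the Gq-coupled muscarinic receptor of cortical and hippocampal pyramidal neurons. Its brightest probe stood at -4.08, -4.15 and -3.67 in knock-outs 53, 48 and 54 and at -3.34, -2.80 and -3.35 in controls 15, 62 and 16. All 3 knock-out arrays lay below all 3 controls, and the difference was -0.80 (SE 0.19, interval -1.27 to -0.33), 0.574 of the control signal. Its unadjusted p was 0.00512 and its adjusted p 0.355 in limma over all probes, so it did not pass. The difference was -0.57 within slide 1 and -1.0 within slide 2, and lay between -0.95 and -0.62 as single arrays were left out.

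A further Chrm1 probe of nearly the same brightness did not show the same size. It stood at -3.71, -3.68 and -4.04 in knock-outs and at -3.67, -3.86 and -3.58 in controls, a difference of -0.11 (SE 0.13, limma adjusted p = 0.904) with overlapping groups. On knock-outs 53 and 48 this probe was the brighter of the pair, so which probe stands for Chrm1 rested on the other arrays. The mean of both probes differed by -0.45 (unadjusted p = 8.19e-04, limma adjusted p = 0.168). Normexp correction with 75th-percentile scaling gave 0.07 for the brightest probe.

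**Figure D4:**
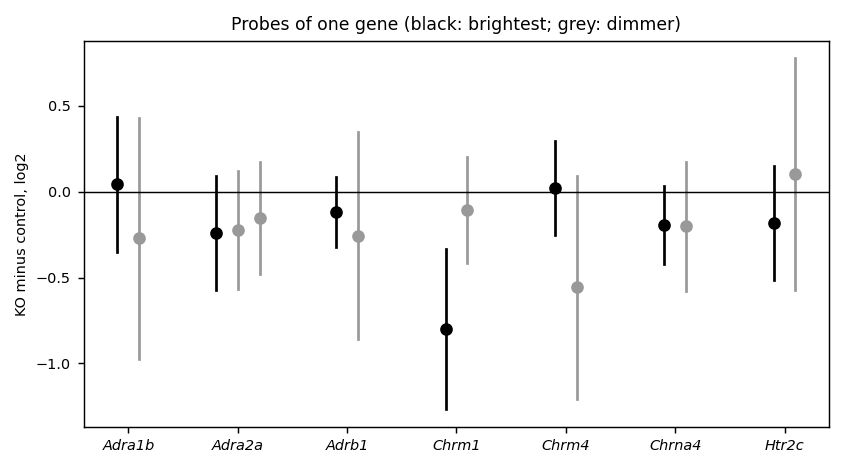
Knock-out minus control difference (log2, vertical axis) with its 95% interval for every tested probe of the 7 receptor genes with several, with the brightest probe in black and dimmer probes in grey. The probes of Adra2a and Chrna4 lie together, whereas those of Chrm1 stand at -0.80 and -0.11 and those of Chrm4 at 0.02 and -0.56.

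Chrm3, a Gq-coupled muscarinic receptor, was the brightest of its family and split the knock-outs. It stood at -1.63, -1.68 and -2.97 in knock-outs 53, 48 and 54 and at -2.70, -2.70 and -2.54 in controls 15, 62 and 16. Knock-outs 53 and 48 were thus above all controls and knock-out 54 below them. The difference was 0.55 (SE 0.35, limma adjusted p = 0.785). As single arrays were left out, the lowest value was 0.32 without knock-out 53 (limma unadjusted p = 0.412). The highest was 0.99 without knock-out 54 (unadjusted p = 8.06e-05, adjusted p = 0.0797). Knock-out 54 was the knock-out that went against the difference, so nothing is read from the p without it. A dimmer Chrm3 probe, above background on 1 array of each group and not tested, stood at -5.67, -5.81 and -5.42 in knock-outs 53, 48 and 54. The split of the knock-outs thus rests on 1 probe.

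Chrm4, the Gi-coupled muscarinic receptor best known from striatal neurons, had 2 tested probes. The brighter stood at -4.68, -4.29 and -4.36 in knock-outs and at -4.46, -4.44 and -4.50 in controls, a difference of 0.02 (SE 0.12, limma adjusted p = 0.982). The dimmer one, above background on 1 of 3 knock-out arrays, entered the test through the controls alone, where it was higher, and nothing is read from its difference. It stood at -6.04, -5.45 and -5.33 in knock-outs and at -4.66, -5.54 and -4.95 in controls, a difference of -0.56 (SE 0.27, adjusted p = 0.696). Striatal markers were lower in 12 of 12 (0 called, 2 at an unadjusted p under 0.05, lowest limma adjusted p = 0.393), where 51.8% of all genes were lower and 4.38% were lower at such a p. Their mean deviation was -0.37, -0.11 and -0.27 in knock-outs 53, 48 and 54 and 0.50, 0.47 and -0.22 in controls 15, 62 and 16, so control 16 lay among the knock-outs. Their summed signal was 55.0 to 67.1 in knock-outs and 57.1 to 105 in controls, and their part in the Chrm4 values was not tested. Of the tested muscarinic genes 2 were higher and 1 lower. Chrm2, the Gi-coupled autoreceptor, was above background on 1 array of each group and was not tested.

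The brightest nicotinic probe was that of Chrnb2, the beta subunit that joins alpha4 in the main high-affinity nicotinic receptor of brain. Chrnb2 stood at -0.09, -0.18 and 0.00 in knock-outs 53, 48 and 54 and at -0.15, -0.16 and -0.02 in controls 15, 62 and 16. The groups overlapped almost fully, and the difference of 0.02 (SE 0.09, limma adjusted p = 0.978) had an interval from -0.19 to 0.23. Its partner Chrna4 stood at -2.34, -2.26 and -2.29 in knock-outs and at -2.26, -2.02 and -2.02 in controls. The highest knock-out and the lowest control were level to the second decimal. The difference was -0.19 (SE 0.09, interval -0.42 to 0.03, unadjusted p = 0.0808, limma adjusted p = 0.693), with -0.01 within slide 1 and -0.32 within slide 2. A dimmer Chrna4 probe differed by -0.20 (adjusted p = 0.834).

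Chrna7, which forms a calcium-permeable receptor of 1 kind of subunit, stood at -2.74, -2.78 and -1.79 in knock-outs 53, 48 and 54 and at -2.65, -2.75 and -2.70 in controls. Knock-out 54 stood apart from the other 5 arrays, which lay between -2.78 and -2.65. The difference was 0.26 (SE 0.26, limma adjusted p = 0.876), and -0.06 without knock-out 54. A dimmer Chrna7 probe, above background on 1 control alone and not tested, stood at -6.63, -6.37 and -6.28 in knock-outs 53, 48 and 54. The place of knock-out 54 thus rests on 1 probe. Knock-out 54 also had the enzyme Th, which makes the precursor of dopamine and noradrenaline, at -0.38. The other knock-outs had Th at -4.57 and -4.28 and the controls at -3.78, -3.42 and -3.78. Slc6a3, a listed pathway gene, went the same way, at -2.22 in knock-out 54 and -5.46 and -5.64 in the others. Among the other listed markers of brainstem monoamine neurons, knock-out 54 was the lowest knock-out for Tph2, Fev, Slc6a4 and Slc6a2. For Dbh it lay between the other knock-outs. This comparison, with the choice of Th, was made after the values were seen. Whether the tissue of knock-out 54 differed was not tested.

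Chrna5, an accessory subunit of alpha4-beta2 receptors that was named after its values were seen, stood at -2.00, -3.32 and -4.00 in knock-outs 53, 48 and 54 and at -3.51, -3.20 and -3.37 in controls 15, 62 and 16. The knock-outs reached above and below all controls, and the difference was 0.25 (SE 0.47, limma adjusted p = 0.943). It turned to -0.30 without knock-out 53. In the RefSeq promoter table of GRCm38.p6, which reads 250 bases before to 50 after each start, 36 promoters of 32 of the 44 genes matched by symbol. Cut-repeat proteins such as mammalian Cux1 are known to bind sites with the letters ATCGAT or ATCAAT, so these were searched on both strands, and no match in a receptor promoter overlapped another. ATCGAT was found in 304 of 32851 promoters in the table (0.925%) and among the receptors in 1 of 36, at one of the starts of Chrna5, 26 bases before it. ATCAAT was found in 7.54% of all promoters and in 3 of the 36, those of Chrna5, Htr1a and Htr1d, 91, 217 and 156 bases before the start. The stretches are shown because they hold these letters, in capitals (ATTGAT is ATCAAT on the other strand), and the 3 genes' differences did not pass or were not tested. They lie on the plus strand of chr9:54980630-54980879, chr13:105443443-105443521 and chr4:136423328-136423413, all before the start.
Chrna5: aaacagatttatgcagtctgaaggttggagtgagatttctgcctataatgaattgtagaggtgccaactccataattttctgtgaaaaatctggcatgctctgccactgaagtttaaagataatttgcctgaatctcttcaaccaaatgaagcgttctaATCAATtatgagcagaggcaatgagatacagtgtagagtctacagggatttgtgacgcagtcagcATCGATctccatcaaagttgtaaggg
Htr1a: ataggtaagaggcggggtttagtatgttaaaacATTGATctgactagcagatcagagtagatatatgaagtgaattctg
Htr1d: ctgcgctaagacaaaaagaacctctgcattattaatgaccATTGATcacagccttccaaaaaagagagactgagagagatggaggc

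A match to letters is a description and not a site. Of these 3 genes, Htr1a differed by -0.04, Chrna5 by 0.25 with the spread given above, and Htr1d was above background on no array.

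Subunits of the muscle receptor were also measured. Chrna1, its ligand-binding alpha subunit, stood at -4.25, -4.23 and -4.10 in knock-outs and at -4.13, -4.14 and -4.01 in controls, a difference of -0.10 (SE 0.08, limma adjusted p = 0.838). Chrne, the subunit of the adult muscle form, stood at -2.93, -2.90 and -2.96 in knock-outs and at -3.20, -3.04 and -2.89 in controls, a difference of 0.11 (SE 0.10, limma adjusted p = 0.844). The groups overlapped for both. Only 1 of 2 Chrne probes was above background on all arrays, and the other was so on 1 control alone. Over the 6 tested nicotinic genes 4 were higher and 2 lower, with a median of 0.07 and a range from -0.19 to 0.26.

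**Figure D5:**
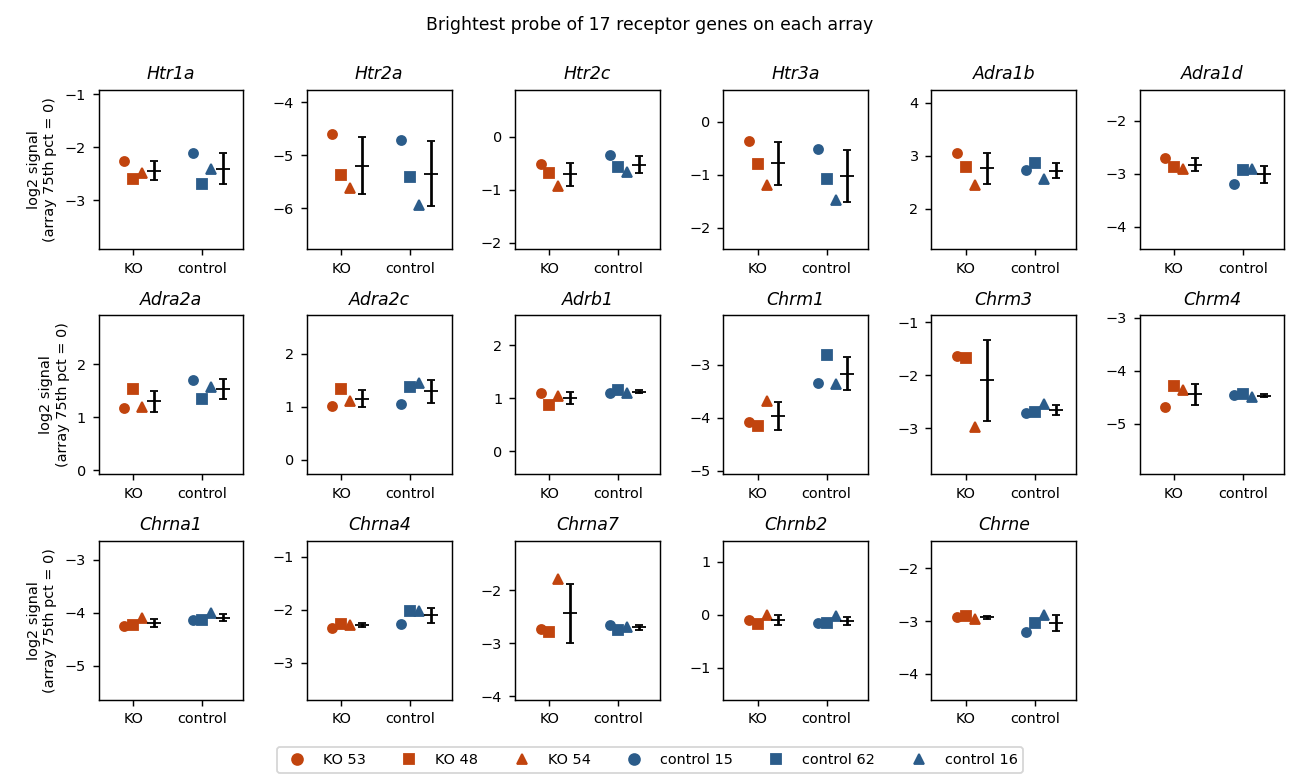
Level (log2 signal, 0 at the array's 75th percentile, each panel spanning 3 units) of the brightest probe of 17 receptor genes on the 3 knock-out arrays (red, left) and the 3 control arrays (blue, right), with mean ± SD in black. Chrm1 and Adrb1 have all knock-outs below all controls, Chrm3 and Chrna7 have 1 knock-out apart from the other 2, and the groups of the rest overlap.

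Genes that make, carry, break down or relay these transmitters were set beside the receptors, with 84 listed and 71 tested. Of these 22 were higher and 49 lower, with 0 called in limma, 8 at an unadjusted p under 0.05 (2 higher and 6 lower) and a median difference of -0.07. Of all genes 51.8% were lower, 8.27% had such a p in either direction and 4.38% had it and were lower. The split was 53 higher and 18 lower without scaling between arrays and 14 and 57 with median scaling.

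Lypd6b, a Ly6-family protein related to modulators of nicotinic receptors, stood at 1.11, 1.08 and 0.88 in knock-outs and at 1.48, 1.52 and 1.65 in controls, a difference of -0.53 (SE 0.10, limma adjusted p = 0.201). Its relative Lypd6, named after its values were seen, stood at 0.31, 0.11 and 0.20 in knock-outs and at 0.46, 0.41 and 0.72 in controls, a difference of -0.32 (SE 0.11, limma adjusted p = 0.528). For both genes, all knock-outs lay below all controls, as in 7.21% of all genes, although neither passed. Both were picked by their values, so nothing is read from their likeness.

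Prkar1a, a regulatory subunit of the cAMP-dependent kinase that acts below Gs-coupled receptors, stood at 2.25, 2.28 and 2.19 in knock-outs and at 1.90, 1.83 and 1.81 in controls. Its difference was 0.39 (SE 0.07, limma adjusted p = 0.210). Adcy5, an adenylyl cyclase known for its high level in striatum, stood at 0.75, 0.98 and 0.98 in knock-outs and at 1.33, 1.41 and 1.19 in controls, a difference of -0.40 (SE 0.10, adjusted p = 0.386). Tph2, the neuronal enzyme of serotonin synthesis, was dim and was above background on 2 of 3 controls, at -5.07, -4.75 and -5.31 in knock-outs and -6.28, -5.44 and -6.17 in controls. Its difference was 0.92 (SE 0.25, limma adjusted p = 0.416). Tph2 entered the test through the knock-outs alone, where it was higher, so its place among the lowest p rests in part on that filter.

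Of the listed pathway genes 8 were above background on no array. Among them, named after their values were seen, were Chat and Slc18a3, which make and load acetylcholine, and the serotonin and noradrenaline transporters Slc6a4 and Slc6a2. The choline transporter Slc5a7, also named after its values were seen, was measured at -4.06, -3.93 and -4.21 in knock-outs and -2.96, -3.43 and -3.76 in controls, a difference of -0.68 (SE 0.20, limma adjusted p = 0.476). Isl1, a marker of cholinergic and striatal neurons named after its values were seen, stood at -4.18, -3.55 and -3.90 in knock-outs and -2.60, -2.76 and -3.79 in controls, a difference of -0.83 (unadjusted p = 0.0435, limma adjusted p = 0.612). For Slc5a7 all knock-outs lay below all controls, as in 7.21% of all genes, while for Isl1 the groups overlapped. In both genes control 16 was the control nearest the knock-outs, as it was for the striatal markers given with Chrm4. Of 5 listed cholinergic markers 3 were tested, 1 higher and 2 lower. The higher one was Ngfr, also named after its values were seen, which differed by 0.08 (limma adjusted p = 0.926). The part of cholinergic or striatal cells in the Slc5a7 values was not tested.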

How the data were processed

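RNA of 6 cortex samples was measured on 1-colour arrays. Agilent Feature Extraction 9.1.3.1 made the spot values. Its processed signal, the intensity used, had a spatial and a multiplicative trend removed per array with no separate background correction, and has surrogates at dim spots, per the file headers. The authors also deposited log2 values, which have a median of 6.75 in every column and rank exactly as the processed signal of their own array. Sorted, the columns hold the same values to within 0.000703, as quantile normalization gives, while any centring is not stated. No source used here names the genome build of the array annotation.

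Of 45018 spots per array, 1639 control spots and, over the 6 arrays, 120 spot values with outlier flags were left out, and 0 spots were saturated. Spots of a probe were averaged on the log2 scale (41174 probes), and log2 of the processed signal minus the array's 75th percentile was the main value. Tested probes (25504) exceeded background clearly on each array of either group. This filter uses the group labels. Each gene was read from its probe of highest mean over the 6 arrays. Probes were named through a table of GRCm38.p6 by accession (22951), symbol (6659) or synonym (3109), and 8455 kept the file's name. Members were taken by the file's own names.

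The two-sided test was that of limma 3.58.1 (lmFit, eBayes; R 4.3.3), with p-values adjusted by Benjamini and Hochberg's method over the whole set of tested probes and a threshold of 0.05. The procedure was tested on simulated data. The number of arrays limits the precision. The 6 arrays lie on 2 slides, with control 15 and knock-outs 48 and 54 on slide 1 and the others on slide 2. Alternatives changed scaling, background correction, filter, variance model, array weights, slide, probe summary, arrays left out and the deposited log2 values. The members, the pathway and marker lists and the tests were chosen with earlier results of these data known. Named are the 4 markers Htr2a, Htr3a, Chrm1 and Chrna4, the 3 brightest genes of each family, the 10 of lowest p, genes above background in 1 group alone, and up to 4 pathway genes of lowest p; exceptions are stated, and 1 gene that the rule names is not reported here.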

Additional observations from a re-analysis of the deposited data

How the results depend on the processing

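For 0 of the 24 tested receptor genes was the adjusted threshold passed in the main setting, and 0 member genes, member probes or pathway genes passed it in any of the alternatives with a test. Over the alternatives with a test for 18 named receptors, the lowest limma adjusted p was 0.0797 (Chrm3 without knock-out 54). The 33 called probes of the whole array became 0 with normexp and the 75th percentile (149 at an unadjusted p under 0.05 in limma), 3 where 1 array well above background was enough, 2 with no filter on dim probes and 15 with slide as a block, and ranged from 2 (without control 16) to 60 (without knock-out 53) as single arrays were left out, with 7 without control 15 and 12 without knock-out 54. The causes were not tested. Receptor genes above background numbered 24 by all 3 arrays of a group and 35 by at least 1 array.

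Signs of uncalled differences, that of Chrm1 included, turned as follows. Chrm4 was -0.024 with quantile normalization, -0.016 with median scaling, -0.039 with slide as a block, -0.026 in the deposited values, -0.27 by the mean of its probes and -0.21 within slide 2. Chrnb2 was -0.016 with median scaling, -0.00048 with array weights and -0.0055 within slide 2. Htr1a was 0.14 without scaling, 0.22 with normexp and the 75th percentile, 0.026 with array weights and 0.30 within slide 2. Without scaling Adra2c was 0.040, Adrb1 0.058 and Chrna1 0.074. With normexp and the 75th percentile Adra1b was -0.010, Chrm1 0.068, Chrna4 0.090 and Chrna1 0.37. Adra1b was -0.11 by the mean of its probes and -0.10 within slide 1. Within slide 1 Htr2a was -0.79, Htr3a -0.49, Chrna5 -0.15 and Adra2c 0.18, and within slide 2 Htr2c was 0.11 and Chrna7 -0.012. As single arrays were left out, ranges that took both signs were -0.15 to 0.47 for Htr2a, -0.10 to 0.20 for Adra1b, -0.055 to 0.14 for Chrm4, -0.026 to 0.066 for Chrnb2, -0.058 to 0.44 for Chrna7, -0.18 to 0.11 for Htr1a and -0.30 to 0.70 for Chrna5. No paired analysis was possible because the labels give each sample its own number and the groups share none. Dim probes near background, such as Htr2a, Htr6 and the dimmer Chrm4 probe, limit what can be read from these arrays.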
